A study of Mus musculus with 6 samples.

Results

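The S100 proteins were read in suture mesenchyme cells of the mouse skull that had been sorted on an Axin2 reporter. The group holds 10 genes of 19938 tested, namely S100a1, S100a4, S100a6, S100a8, S100a9, S100a10, S100a11, S100a13, S100a16 and S100b. They are S100 proteins of neutrophils and of mesenchyme, picked by name. Each was read by an array feature that carries its symbol alone, and by the one with the highest mean over the 6 samples where a gene had several. The sorts were Axin2+/GFP+ cells (3 samples) and Axin2-/GFP- cells (3 samples). Every sample pooled cells of 6 to 8 mice on a mixed C57BL/6J, CD-1 and B6CBAF2 background. All mice carried both transgenes, Axin2rtTA, in which Axin2 control drives rtTA, an activator that works with doxycycline, and TRE-H2BGFP, a histone and GFP fusion that this activator switches on. All received doxycycline from postnatal day 25 and were collected at day 28, so both sorts shared transgenes, drug and age and were separated by GFP intensity. No antibody against blood cells is named in the methods of the sort, and besides mesenchyme markers both sorts held transcripts of blood cells, whose values are given beside the genes they move with. RNA was read on 1 Affymetrix whole-transcript array per sample, in log2 units.

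S100 proteins are small proteins that bind calcium through EF-hand loops and mostly work as dimers. S100A8 and S100A9 pair into calprotectin, an abundant cytosolic protein of neutrophils and monocytes that binds zinc and other metals and acts as an inflammatory signal when released. S100A4, once called fibroblast-specific protein, binds non-muscle myosin and is found in fibroblasts and in many leukocytes. S100A10 and S100A11 bind annexins, and S100A10 is unusual in the family because it no longer binds calcium. In mouse most S100 genes lie in clusters on one chromosome. Here 9 of the 10 genes lie on chromosome 3 and S100b lies on chromosome 10.

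The 250 bases before the start of S100a8, S100a9, S100a11 and S100a4 are shown because these genes differed between the sorts, and because S100a8 and S100a9 moved together while S100a4, in the same cluster, moved the other way. The sequences come from RefSeq, build GRCm38.p6, which held windows for 9 of the 10 genes. They span chr3:90668821-90669070 (plus strand) for S100a8, chr3:90695722-90695971 (minus strand) for S100a9, chr3:93520246-93520495 (plus strand) for S100a11 and chr3:90603520-90603769 (plus strand) for S100a4. Capitals mark matches, on either strand, to 4 short motifs, TATAAA for the TATA box, TTNNGNAA for C/EBP factors, GAGGAA for PU.1 and TGANTCA for AP-1.
S100a8: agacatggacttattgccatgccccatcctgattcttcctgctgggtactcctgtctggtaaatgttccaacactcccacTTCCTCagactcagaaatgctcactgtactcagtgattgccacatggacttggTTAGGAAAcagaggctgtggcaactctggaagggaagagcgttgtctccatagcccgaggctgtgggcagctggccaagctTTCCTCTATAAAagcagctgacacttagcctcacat
S100a9: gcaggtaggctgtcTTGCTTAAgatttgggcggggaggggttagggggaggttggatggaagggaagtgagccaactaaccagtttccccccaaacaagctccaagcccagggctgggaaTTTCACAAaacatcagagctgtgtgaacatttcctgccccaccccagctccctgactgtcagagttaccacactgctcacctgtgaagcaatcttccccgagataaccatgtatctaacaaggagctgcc
S100a11: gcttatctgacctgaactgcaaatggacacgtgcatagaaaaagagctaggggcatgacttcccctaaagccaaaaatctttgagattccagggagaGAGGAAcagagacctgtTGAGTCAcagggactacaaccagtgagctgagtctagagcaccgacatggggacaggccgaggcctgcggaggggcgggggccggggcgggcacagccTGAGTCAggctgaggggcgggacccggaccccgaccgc
S100a4: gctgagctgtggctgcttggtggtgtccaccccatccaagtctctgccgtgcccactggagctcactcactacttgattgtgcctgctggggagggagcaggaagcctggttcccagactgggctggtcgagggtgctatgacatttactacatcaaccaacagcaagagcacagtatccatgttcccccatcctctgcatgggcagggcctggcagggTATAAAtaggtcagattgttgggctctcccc

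The S100a8 window held a TATAAA that begins 30 bases before the start, next to a GAGGAA match on the opposite strand that begins 36 bases before it, with no base between them. A second GAGGAA match and a TTNNGNAA match lie further upstream, 170 and 117 bases before the start. The S100a9 window held 2 TTNNGNAA matches, 236 and 130 bases before the start. The S100a11 window held 2 TGANTCA matches, 136 and 38 bases before the start, and 1 GAGGAA match. The S100a4 window held a TATAAA that begins 31 bases before the start and no match to the other motifs. Among 32851 promoter windows of the same length, TATAAA was found in 12.4%, TTNNGNAA in 36.8%, GAGGAA in 23.3% and TGANTCA in 6.75%. These matches describe the letters only. Upstream of S100a1 and S100a13, which are read in opposite directions, 104 bases were common to both windows, and neither gene was called as different.

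In limma with Benjamini-Hochberg adjustment over all genes, 3 of the 10 S100 genes were higher in Axin2+/GFP+ cells, against 4.64% of all genes tested. These were S100a8, S100a9 and S100a11. S100a4 alone was lower, against 11.4% of all genes. Over all genes 926 were higher and 2265 lower, a split that was 768 and 1266 after quantile normalization, 785 and 1468 after cyclic loess, 459 and 2719 after median centring and 210 and 3980 when arrays were centred on 1190 olfactory and vomeronasal receptor genes. In the methods' t-test, run gene by gene, 0 of the 10 passed after Benjamini-Hochberg adjustment. The samples of the 2 sorts did not overlap for 4 of the 10 genes that were higher, against 23.1% of all genes, and for 2 that were lower, against 17.8%. The median log2 change of the 10 genes was 0.24, against 0.14 over all genes. In bulk RNA of sorted cells, a larger share of a cell type and more RNA per cell cannot be told apart. The labels call the samples biological replicates, so the spread behind each p-value is that between pools.

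**Figure D1:**
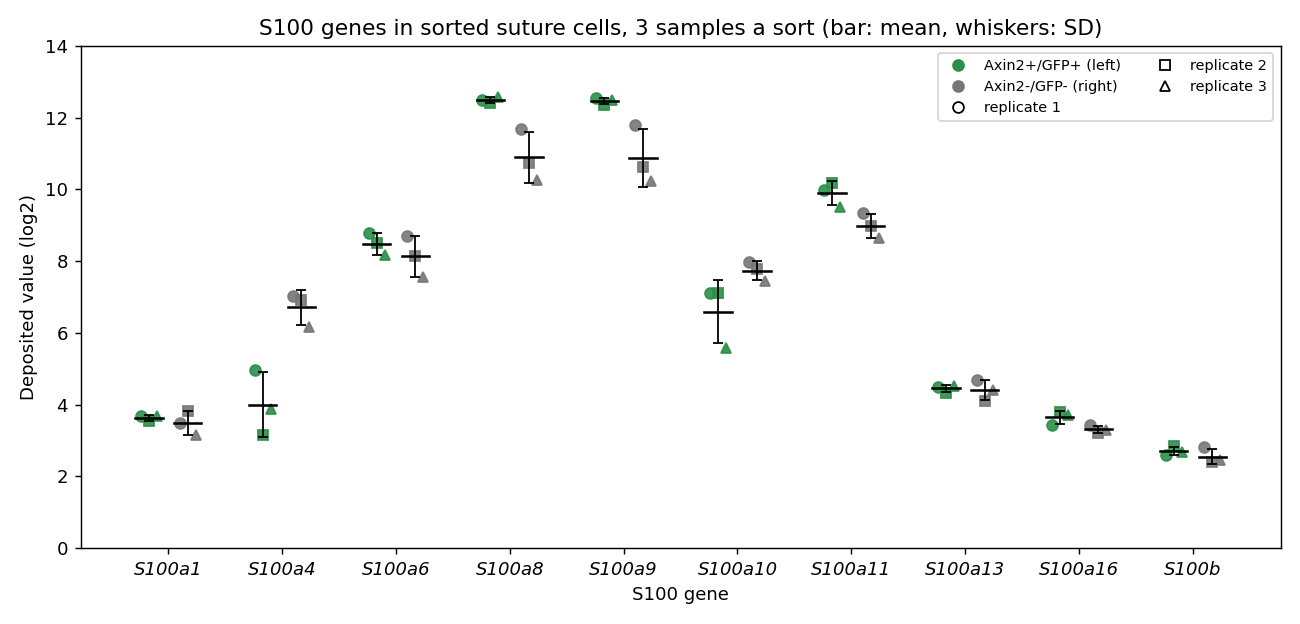
Deposited log2 values of the 10 S100 genes, with 1 point per sample, green for Axin2+/GFP+ and grey for Axin2-/GFP- cells; the horizontal bar is the mean and the whiskers are 1 SD of 3 samples. S100a8, S100a9, S100a11 and S100a16 stand higher in every Axin2+/GFP+ sample, S100a4 and S100a10 stand lower in every one, and the other 4 genes overlap.

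S100a8, 1 subunit of calprotectin, had log2 values of 12.49, 12.40 and 12.57 in Axin2+/GFP+ cells, against 11.68, 10.72 and 10.27 in Axin2-/GFP- cells. Every Axin2+/GFP+ sample lay above every Axin2-/GFP- sample. Its log2 change was 1.60 (standard error, SE, 0.32, limma adjusted p = 0.0126), a fold of 3.03. S100a9, the other subunit, had log2 values of 12.55, 12.36 and 12.49 in Axin2+/GFP+ cells, against 11.79, 10.64 and 10.23 in Axin2-/GFP- cells. Again the sorts did not overlap, and the log2 change was 1.58 (SE 0.35, limma adjusted p = 0.0193), a fold of 2.99. An exact permutation test on either gene gave a two-sided p of 0.1, the smallest that 3 samples against 3 allow. The S100a8 call was lost without Axin2-/GFP- replicate 2 (log2 change 1.51, adjusted p = 0.0521), and the S100a9 call without Axin2-/GFP- replicate 2 (1.46, adjusted p = 0.0736) or replicate 3 (1.25, adjusted p = 0.0596).

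The spread of both genes lay mostly in the Axin2-/GFP- sort. S100a8 averaged 12.49 ± 0.09 in Axin2+/GFP+ cells and 10.89 ± 0.72 in Axin2-/GFP- cells, and S100a9 averaged 12.47 ± 0.10 in Axin2+/GFP+ cells and 10.89 ± 0.81 in Axin2-/GFP- cells (SD, n = 3 each). The Axin2+/GFP+ values sit near the top of the array scale, where the highest value of any feature was 13.79. After each gene was centred on its own mean, their profiles differed by a root mean square of 0.07 over the 6 samples, and each was the nearest gene to the other among 17214 genes compared. Next to S100a8 came Clec12a, a lectin-type receptor of myeloid cells, at 0.19 and Cybb, the membrane subunit of the phagocyte NADPH oxidase, at 0.20. The same genes followed for S100a9, at 0.20 and 0.24. Clec12a had a log2 change of 1.41 (limma adjusted p = 0.0168) and Cybb of 1.58 (limma adjusted p = 0.0134). Both genes were picked for their likeness to S100a8 and S100a9 in these samples, so changes of near size follow from that choice. The call of Clec12a was lost without Axin2-/GFP- replicate 2 or 3.

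Most markers of neutrophils other than S100 genes moved with S100a8 and S100a9. Of 17 measured, 13 were called higher in Axin2+/GFP+ cells and 0 were called lower. The other 4 were not called, and their samples overlapped between the sorts. Of these, Csf3r changed by -0.46 (limma adjusted p = 0.330) and Cxcr2 by 0.03, while Mmp9 and Retnlg had positive changes. The count of higher calls ran from 11 to 15 with 1 sample left out and was 2 in the methods' t-test. The mean log2 value of the 17 markers ran from 7.37 to 7.68 in the Axin2+/GFP+ samples and from 4.63 to 6.01 in the Axin2-/GFP- samples. Fcnb, a ficolin of neutrophil granules, had log2 values of 7.12, 6.67 and 7.77 in Axin2+/GFP+ cells, against 3.85, 3.09 and 3.04 in Axin2-/GFP- cells. Its log2 change was 3.86 (limma adjusted p = 0.000281). Ltf, lactoferrin, changed by 4.30, Elane, neutrophil elastase, by 2.96 and Mpo, myeloperoxidase, by 1.97. Of 10 markers of macrophages and monocytes, only Lyz2, lysozyme, which neutrophils also make, was higher (log2 change 1.25), a call lost without Axin2+/GFP+ replicate 1 (1.17) or 2 (1.25) and when arrays were centred on receptor genes (0.93). Cd68 and Ccr2 were lower. The part of neutrophils in the S100a8 and S100a9 differences was not tested.

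S100a11, which binds annexin A1 and is widely expressed, had log2 values of 9.99, 10.19 and 9.52 in Axin2+/GFP+ cells, against 9.33, 8.99 and 8.64 in Axin2-/GFP- cells. The lowest Axin2+/GFP+ sample lay above the highest Axin2-/GFP- sample by less than the range within either sort. The log2 change was 0.91 (SE 0.24, limma adjusted p = 0.0382), a fold of 1.88. A second feature with the same symbol gave values of 9.75, 10.22 and 9.30 in Axin2+/GFP+ cells and 9.19, 8.83 and 8.47 in Axin2-/GFP- cells, which differ by 0.92. The RefSeq table also lists a pseudogene of S100a11, and whether these features also read that copy was not tested. The call was lost without Axin2+/GFP+ replicate 1 (log2 change 0.86) or 2 (0.77), without Axin2-/GFP- replicate 2 (0.91) or 3 (0.74), after median centring (0.80) and when arrays were centred on receptor genes (0.59), and the change was 1.54 after cyclic loess. The genes nearest to S100a11 in pattern were Lilrb4a, an inhibitory receptor of myeloid cells, at 0.11, Tctex1d4 at 0.12 and Osm, the cytokine oncostatin M, at 0.14. Lilrb4a (log2 change 0.71, limma adjusted p = 0.0737) and Osm (0.81, limma adjusted p = 0.0609) were not called, but passed after quantile normalization and cyclic loess. Tctex1d4 was called (0.82, limma adjusted p = 0.0407), but not after either of these, after median centring or when arrays were centred on receptor genes.

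S100a4, the myosin-binding member, was lower in Axin2+/GFP+ cells, unlike S100a8 and S100a9 of the same cluster. It had log2 values of 4.96, 3.16 and 3.89 in Axin2+/GFP+ cells, against 7.04, 6.93 and 6.17 in Axin2-/GFP- cells. The sorts lay more than 1 log2 unit apart at their closest samples, and the log2 change was -2.71 (SE 0.43, limma adjusted p = 0.00440), a level 6.53-fold lower in Axin2+/GFP+ cells. With 1 sample left out the log2 change ran from -3.19 to -2.29 and the adjusted p of limma was 0.0234 or less. The nearest patterns were those of the small nucleolar RNA Snora30 at 0.22, Nfatc3, a transcription factor activated by calcium and calcineurin, at 0.36 and Sf3b1, a splicing factor, at 0.37. Picked for that likeness, these genes fell by 2.61, 2.50 and 2.25 on the log2 scale.

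The B-lineage markers were lower as a list along with S100a4, and so were a few genes of the macrophage and endothelial lists. All 11 measured B-lineage markers were lower, with a mean log2 value of 2.96 to 3.15 in the Axin2+/GFP+ samples and 7.05 to 7.61 in the Axin2-/GFP- samples. Within the Axin2-/GFP- sort this mean rose from replicate 1 to replicate 3 (7.05, 7.22 and 7.61), while S100a4 fell (7.04, 6.93 and 6.17). Cd68, a lysosomal protein of macrophages, changed by -1.49 (limma adjusted p = 0.00203) and Ccr2, a chemokine receptor of inflammatory monocytes, by -1.41 (limma adjusted p = 0.00895). Csf1r of the same list changed by -0.60 and was not called (limma adjusted p = 0.0838). It passed after median centring (-0.71) and when arrays were centred on receptor genes (-0.92). Of the 10 macrophage and monocyte markers 2 were lower and 1 higher, with a median log2 change of -0.06. The mean of this list overlapped between the sorts, at 4.01 to 4.27 in Axin2+/GFP+ cells and 4.09 to 4.59 in Axin2-/GFP- cells. Of 6 endothelial markers 1 was lower and 0 higher, with a median log2 change of -0.02. The list mean was 2.54 to 2.68 in Axin2+/GFP+ cells and 2.94 to 3.09 in Axin2-/GFP- cells. The lower gene was Pecam1, an adhesion molecule of endothelium that leukocytes also carry, which changed by -2.23 (limma adjusted p = 0.00119). Cdh5 (-0.34), Vwf (-0.06), Tek (0.03), Emcn (0.20) and Kdr (0.21) were not called. Of 11 measured mesenchyme and fibroblast markers 4 were higher and 0 lower, namely Col1a1, Col1a2, Col3a1 and Col5a1, which encode fibrillar collagen chains, with a list mean of 5.72 to 6.15 in Axin2+/GFP+ cells and 4.90 to 5.24 in Axin2-/GFP- cells. The call of Col5a1 was lost without Axin2-/GFP- replicate 1 (1.04) or 2 (0.96) and when arrays were centred on receptor genes (0.70). The part of any of these cell types in the S100a4 difference was not tested.

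S100a10, the partner of annexin A2, had log2 values of 7.10, 7.11 and 5.57 in Axin2+/GFP+ cells, against 7.97, 7.79 and 7.45 in Axin2-/GFP- cells. The sorts did not overlap, but replicate 3 of the Axin2+/GFP+ sort lay far below its fellows. The log2 change of -1.14 (SE 0.39, limma adjusted p = 0.0813) did not pass the threshold. Without Axin2+/GFP+ replicate 3 it was -0.63 (adjusted p = 0.0888). It passed when arrays were centred on receptor genes (-1.46, adjusted p = 0.0242), and after cyclic loess it was -0.51 (adjusted p = 0.480).

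S100a6, calcyclin, a gene of fibroblasts and many proliferating cells, had log2 values of 8.79, 8.50 and 8.18 in Axin2+/GFP+ cells, against 8.70, 8.14 and 7.57 in Axin2-/GFP- cells. The sorts overlapped. The log2 change was 0.35 (SE 0.29, limma adjusted p = 0.406), with a 95% interval of -0.32 to 1.02. It was 0.93 after quantile normalization and 1.01 after cyclic loess, and it did not pass in either.

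The remaining 4 genes were dim and none was called. S100a16, a widely expressed member of the family, had log2 values of 3.44, 3.79 and 3.72 in Axin2+/GFP+ cells, against 3.42, 3.22 and 3.31 in Axin2-/GFP- cells. The sorts stayed apart by 0.02 at their closest samples, and the log2 change was 0.33 (95% interval -0.06 to 0.72, limma adjusted p = 0.210). S100a13, which takes part in the release of FGF1, had a log2 change of 0.05 (95% interval -0.39 to 0.49), at 4.45 ± 0.10 in Axin2+/GFP+ cells and 4.41 ± 0.28 in Axin2-/GFP- cells (SD, n = 3 each). S100a1, best known from heart and skeletal muscle, had a log2 change of 0.15 (95% interval -0.31 to 0.61), at 3.64 ± 0.08 in Axin2+/GFP+ cells and 3.48 ± 0.33 in Axin2-/GFP- cells (SD, n = 3 each). Of 10 markers of striated muscle 0 were called in limma, with 1 higher at an unadjusted p under 0.05 in limma and 1 in the methods' t-test.

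S100b, a marker of Schwann cells and astrocytes that chondrocytes also express, had log2 values of 2.61, 2.84 and 2.67 in Axin2+/GFP+ cells, against 2.81, 2.41 and 2.45 in Axin2-/GFP- cells. The samples were interleaved, and the log2 change was 0.15 (95% interval -0.26 to 0.56). Signal at 1190 olfactory and vomeronasal receptor genes gives a measure of the low end of the scale, and 9.50% of them were at least as bright as S100b in Axin2+/GFP+ cells and 6.64% in Axin2-/GFP- cells. Of 8 measured Schwann cell and glial markers only Ncam1, an adhesion molecule also found outside glia, was called, as higher (log2 change 1.32), and the call was lost without Axin2-/GFP- replicate 2 (1.26) or 3 (1.19). Of 10 chondrocyte markers Col2a1, Col9a2 and Col11a1, which encode cartilage collagen chains, were higher and 0 were lower. The count of higher calls was 3 without Axin2+/GFP+ replicate 1, 1 without Axin2+/GFP+ replicate 3 and 0 without any other sample. It was also 0 in the methods' t-test and when arrays were centred on receptor genes. The mean of the glial list was 3.05 to 3.11 in Axin2+/GFP+ samples and 2.73 to 2.81 in Axin2-/GFP- samples. That of the chondrocyte list was 2.83 to 3.06 in Axin2+/GFP+ samples and 2.46 to 2.58 in Axin2-/GFP- samples. The median log2 change was 0.26 for the glial list and 0.35 for the chondrocyte list, near the 0.30 of the receptor genes. The part of these cells in the S100b values was not tested.

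Changes between the sorts varied with signal over the whole array. The median log2 change was 0.25 among genes whose mean log2 value was under 3, against -0.57 for those from 5 to 8 and -0.65 for the 130 genes of 8 or more. S100a6, S100a8, S100a9 and S100a11 belong to this brightest range, in which 31.5% of genes had a log2 change above 0. S100a4 and S100a10 lie in the range from 5 to 8, in which 24.8% did.

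Within the Axin2-/GFP- sort the bright S100 genes had the same order of samples. All 6 with a mean log2 value of 5 or more (S100a4, S100a6, S100a8, S100a9, S100a10 and S100a11) were highest in replicate 1 and lowest in replicate 3, which held for 24.5% of the 1719 genes in that range and for 38.5% of those of 8 or more, where 4 of the 6 lie. The same held for 4 of the 7 other S100 genes, 7 of the 13 intracellular partners, 13 of the 17 neutrophil markers and 0 of the 11 B-lineage markers. S100a4 and S100a10 thus shared this pattern with S100a8 and S100a9 inside the Axin2-/GFP- sort, although they differed from them in direction between the sorts. In the Axin2+/GFP+ sort these genes did not share an order. S100a8 was highest in replicate 3, where S100a6, S100a10 and S100a11 were lowest.

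**Figure D2:**
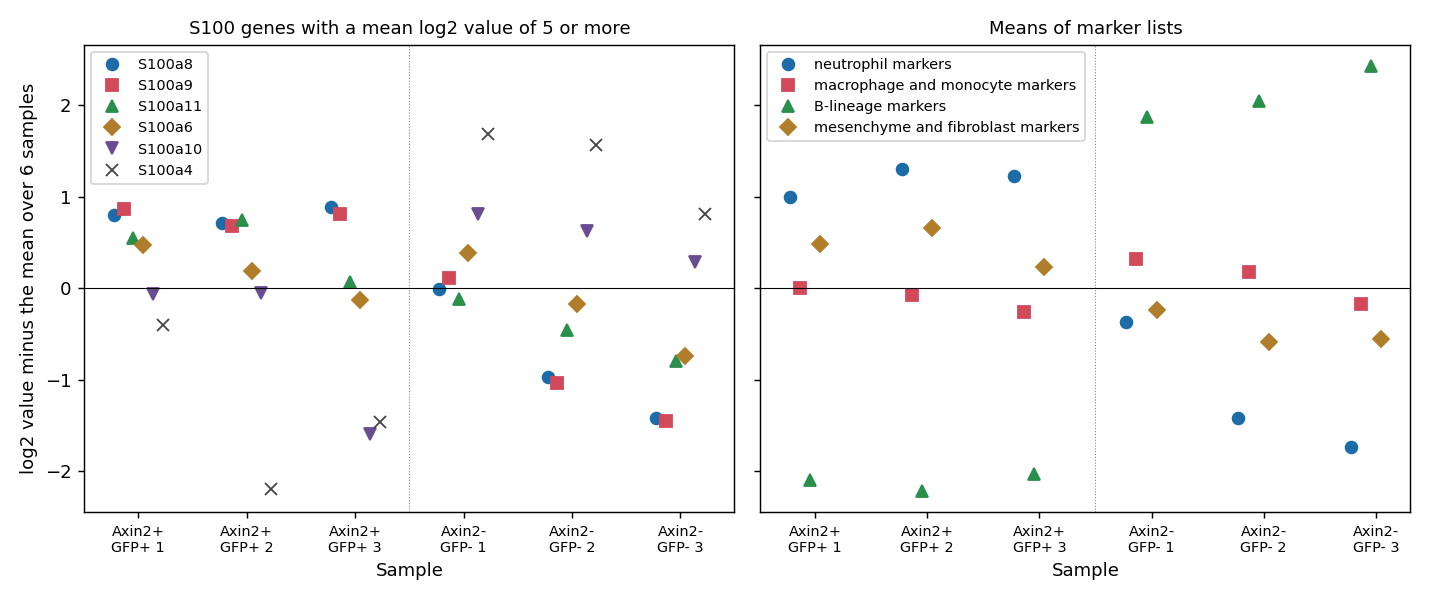
Log2 value minus the mean over the 6 samples, by sample, for the 6 bright S100 genes (left) and for the means of 4 marker lists (right), with Axin2+/GFP+ samples left of the dotted line and Axin2-/GFP- samples right of it. All 6 genes are highest in Axin2-/GFP- replicate 1 and lowest in replicate 3 within that sort, and S100a8 and S100a9 lie side by side. Between the sorts S100a4 and S100a10 lie on the side of the B-lineage list. Within the Axin2-/GFP- sort that list runs the other way, from lowest in replicate 1 to highest in replicate 3.

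By position on chromosome 3 the genes run S100a1, S100a13, S100a16, S100a4, S100a6, S100a8, S100a9, S100a11 and S100a10, with other S100 genes among them. No gene of the RefSeq table lies between S100a8 and S100a9. S100a5 is the only gene between S100a4 and S100a6, and S100a6 was not called. S100a11 and S100a10 lie apart from the rest of the cluster and next to each other but for 1 gene that codes for no protein, and their log2 changes were 0.91 and -1.14.

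Of the S100 genes outside the 10, 7 were measured (S100a2, S100a3, S100a5, S100a7a, S100a14, S100g and S100z). Among these 1 was higher, against 4.64% of all genes, and 0 lower, against 11.4%. S100a14, an epithelial member, had log2 values of 2.34, 2.10 and 1.81 in Axin2+/GFP+ cells, against 1.59, 1.27 and 0.93 in Axin2-/GFP- cells. Its log2 change was 0.82 (SE 0.23, limma adjusted p = 0.0419). Of the receptor genes 32.3% in Axin2+/GFP+ cells and 66.5% in Axin2-/GFP- cells were at least as bright as S100a14. Its call was lost without Axin2+/GFP+ replicate 1 (0.69) or 2 (0.81), without Axin2-/GFP- replicate 2 (0.82) or 3 (0.65), and with each of the 4 rescalings of the arrays, which gave 0.50 to 0.71. The other 6 had log2 changes between 0.12 (S100z) and 0.65 (S100a2), which did not pass. All 6 were dim, with a mean log2 value under 3, a range in which 81.5% of genes had a log2 change above 0. The share of receptor genes at least as bright ran from 3.87% (S100g in Axin2-/GFP- cells) to 56.4% (S100z in Axin2+/GFP+ cells).

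**Figure D3:**
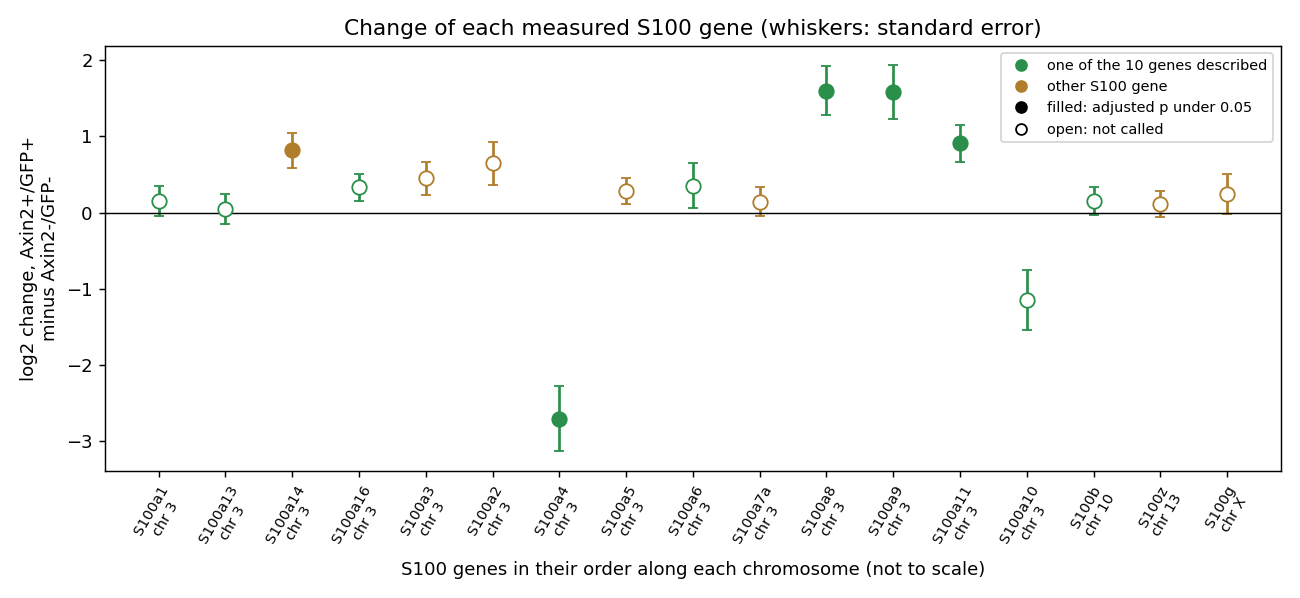
Log2 change of the 17 measured S100 genes, Axin2+/GFP+ minus Axin2-/GFP-, in gene order along each chromosome (not to scale), with whiskers of 1 standard error; filled points have an adjusted p under 0.05 in limma. S100a8 and S100a9 stand side by side at 1.60 and 1.58, S100a4 is the lowest at -2.71, and S100a11 at 0.91 neighbours S100a10 at -1.14.

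Of 13 measured proteins that bind S100 proteins inside the cell, 3 were higher, against 4.64% of all genes, and 3 lower, against 11.4% of all genes, with a median log2 change of -0.34. The count of higher calls was 1 on receptor genes and without Axin2+/GFP+ replicate 2 or any 1 Axin2-/GFP- sample, and that of lower calls was 1 after quantile normalization and after cyclic loess. In the methods' t-test these counts were 0 and 1. Anxa1, annexin A1, which binds S100A11, had log2 values of 9.29, 8.60 and 9.25 in Axin2+/GFP+ cells, against 6.77, 6.03 and 4.97 in Axin2-/GFP- cells. Its samples stood far apart, with a log2 change of 3.12 (SE 0.41, limma adjusted p = 0.00198). Annexin A1 is also abundant in neutrophils. Anxa11, which binds S100A6, changed by 0.96 (adjusted p = 0.0452) and Myh9, the non-muscle myosin heavy chain that S100A4 binds, by 0.98 (adjusted p = 0.0258). Myh9 had a log2 change of 0.32 when all of its features were averaged, which did not pass. The call of Anxa11 ended without Axin2+/GFP+ replicate 2 (1.08) or 3 (0.69), without Axin2-/GFP- replicate 1 (0.90), 2 (0.82) or 3 (1.15), with a variance trend, after median centring (0.85) and on receptor genes (0.64). That of Myh9 ended without Axin2+/GFP+ replicate 2 (1.01), without Axin2-/GFP- replicate 1 (1.05), 2 or 3 (0.90) and on receptor genes (0.67).

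Iqgap1, a scaffold protein of the cell cortex, changed by -0.996 (limma adjusted p = 0.00420) and Mdm2, the ubiquitin ligase of p53, by -1.29 (adjusted p = 0.00540). The call of Iqgap1 ended after quantile normalization (-0.56) and cyclic loess (-0.42). Annexin A2 and Ahnak form a complex with S100A10 at the plasma membrane. Anxa2 had log2 values of 5.89, 6.21 and 5.48 in Axin2+/GFP+ cells, against 5.89, 5.16 and 4.71 in Axin2-/GFP- cells. The sorts overlapped, and its log2 change of 0.60 (limma adjusted p = 0.207) did not pass. Ahnak changed by -0.97 (limma adjusted p = 0.0444), a call that ended without Axin2+/GFP+ replicate 1 (-0.77) or 3 (-0.85), without Axin2-/GFP- replicate 1 (-0.90), 2 (-0.94) or 3 (-1.05), with a variance trend (-0.97), after quantile normalization (-0.54) and after cyclic loess (-0.58). Anxa2, Ahnak and Anxa11 were named after their values were seen.

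Of 8 receptors and binding partners of S100 proteins at the cell surface, 0 were called in limma, and 0 had an unadjusted p under 0.05 in limma or in the methods' t-test. Ager, which encodes RAGE, a receptor of several S100 proteins, differed by -0.11 on the log2 scale (SE 0.19), and Tlr4, a receptor of S100A8 and S100A9, stood at 0.06 (SE 0.19), a value that fell below 0 with each of the 4 rescalings of the arrays and without replicate 3 of either sort. Both were named after their values were seen. The 4 with the smallest p were Nptn (-0.44), Alcam (0.36), Emb (-0.57) and Cd36 (-0.21). Tlr4 was dim, with a mean log2 value of 2.43 in Axin2+/GFP+ cells and 2.38 in Axin2-/GFP- cells. That lies within the signal of the 1190 olfactory and vomeronasal receptor genes, which limits what its values can show.

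**Figure D4:**
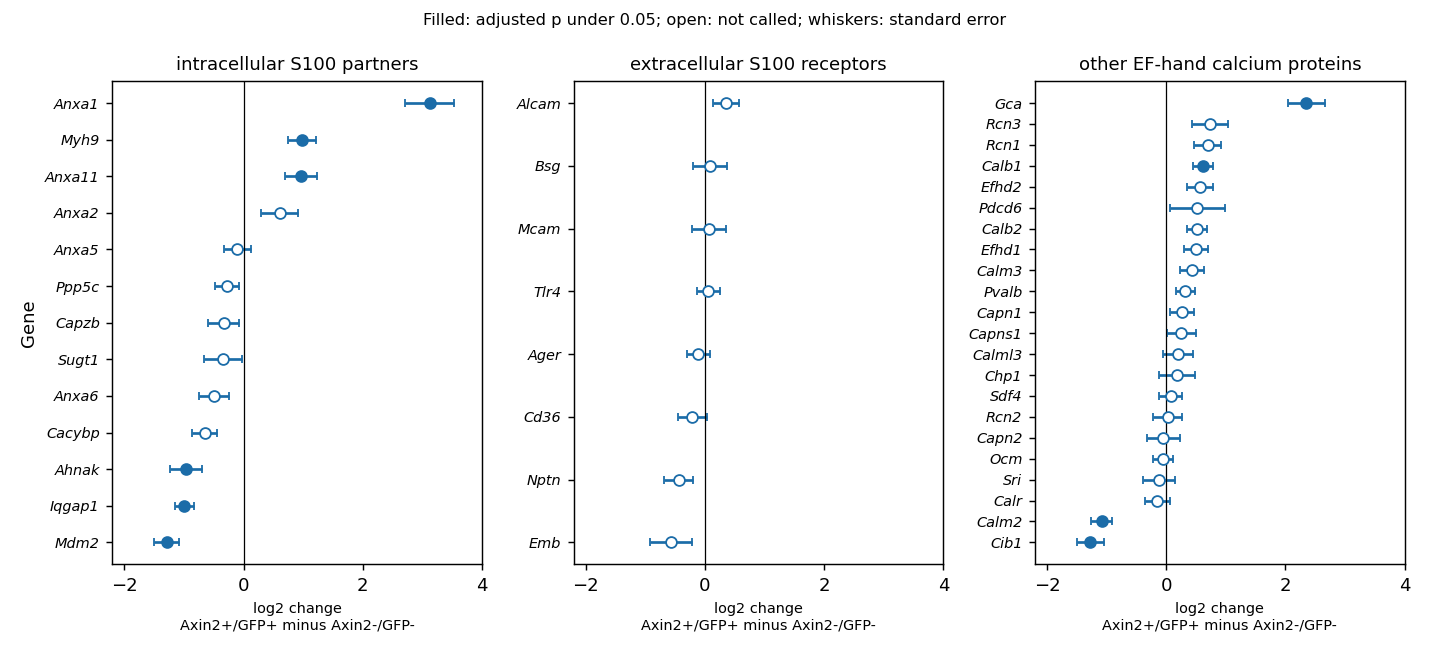
Log2 change, Axin2+/GFP+ minus Axin2-/GFP-, on the horizontal axis for each measured gene of 3 lists, with whiskers of 1 standard error; filled points have an adjusted p under 0.05 in limma. Anxa1 lies furthest right of the intracellular partners at 3.12, no surface receptor is filled, and Gca at 2.35 leads the other EF-hand proteins.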

How the data were processed

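RNA of 6 samples was read on Affymetrix whole-transcript arrays. The authors deposited log2 expression values per feature, and RMA and R 3.2.1 are named in the processing notes of the submitters. The background step, summary level and array annotation were not given in the sources used here. Values entered the fit as deposited, with 0 columns left unmatched. Of 35557 features, 21789 carry 1 gene symbol in the platform table, 1621 carry several and 12147 are unnamed here. The brightest feature per gene gave 19938 genes. S100a11 alone among the 10 genes had more than 1 feature.

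The sorts were compared gene by gene with lmFit and eBayes of limma 3.58.1 (R 4.3.3), and a gene was called at an adjusted p under 0.05 over all genes. The members, lists and tests were chosen with earlier results of these data known. Named genes are the 10 members, every other measured S100 gene, up to 4 genes of smallest p per list, and the 3 nearest patterns per called member, leaving out unnamed transcripts, microRNAs and chemoreceptors. Outside this rule stand the neutrophil and endothelial markers that were not called, and the genes marked as named after their values were seen. Lists were described by counts, with no set test. Promoter sequences came from RefSeq (GRCm38.p6).

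When the comparison of Axin2+/GFP+ with Axin2-/GFP- cells was simulated over 19938 genes, limma recovered 0% of 50 genes changed by 0.5 on the log2 scale, 42.0% at 1, 100% at 2 and 100% at 4. False positives made up 6.20% of the calls. Only 50 genes were changed at each size, all raised in Axin2+/GFP+ cells, whereas the data gave 926 higher and 2265 lower calls. With fewer changed genes the Benjamini-Hochberg adjustment is stricter, so these shares do not give the recovery in the data. The number of arrays limits the precision.

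The fit was repeated with a variance trend, with weights per array and with a block for the replicate number, and the t-test that the methods name (the methods' t-test) was run. The 4 rescalings were cyclic loess, quantile normalization, median centring and centring on 1190 olfactory and vomeronasal receptor genes. Other alternatives were a filter on genes with a mean log2 value under 2.81, the mean of a gene's features and leaving out each sample. The second S100a11 feature was read as well, a choice made after the values were seen. Array files before RMA and protein sequences were not used here.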

Additional observations from a re-analysis of the deposited data

How the results depend on the processing

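Of the 10 S100 genes, 3 were called higher, and this number was 0 in the methods' t-test and ran from 0 to 3 with 1 sample left out (0 without Axin2-/GFP- replicate 2, and S100a8 alone without Axin2-/GFP- replicate 3). S100a4 was called lower with each sample left out, a count of 1 throughout. The count of lower calls was 0 in the methods' t-test, 2 in the fit with the replicate block and 2 with centring on receptor genes, S100a10 being the added gene in both (limma adjusted p = 0.0310 with the block). At an unadjusted p under 0.05, the methods' t-test called 4 of the 10 (S100a4, S100a8, S100a9 and S100a11) and 28.6% of all genes, and after Benjamini-Hochberg adjustment 0 of the 10 and 3.66% of all genes.

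Sign changes were limited to genes that were not called. S100a1 had a log2 change of -0.17 with centring on receptor genes and from -0.011 to 0.32 with 1 sample left out, negative without Axin2-/GFP- replicate 3. S100a13 had -0.063 after median centring, -0.27 with centring on receptor genes and from -0.10 to 0.18 with 1 sample left out, negative without Axin2-/GFP- replicate 2. S100b had -0.042 after cyclic loess and -0.17 with centring on receptor genes. S100a7a had -0.0013, -0.066 and -0.18 and S100z -0.10, -0.13 and -0.20 with quantile normalization, with cyclic loess and on receptor genes. S100a5 had -0.036 and S100g -0.078 with centring on receptor genes, and S100g ran from -0.066 to 0.43 with 1 sample left out, negative without Axin2-/GFP- replicate 3. Tlr4 had -0.053 with median centring, -0.11 with quantile normalization, -0.18 with cyclic loess and -0.26 on receptor genes, and ran from -0.060 to 0.17 with 1 sample left out, negative without replicate 3 of either sort. The cause was not tested. S100b lies under the filter on dim genes and could not be fitted there. S100b and most of the S100 genes outside the 10 lie within the signal of receptor genes, which limits what their values can show.

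The median log2 change of all genes was 0.14, and it was 0.03 with median centring, 0.06 with quantile normalization, 0.01 with cyclic loess and -0.18 on receptor genes. Over all genes, higher calls numbered 239 to 852 and lower calls 1376 to 2082 with 1 sample left out, and 211 and 518 in the methods' t-test. No pairing of same-numbered samples of the 2 sorts is stated in the labels. The correlations of their deviations were low (0.03, 0.01 and 0.05), and 5 of 6 samples correlated best with their own number as a hint from the data. Whether such samples share an origin is not known.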

Other observations

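Of 22 measured calcium-binding EF-hand proteins outside the S100 family, 2 were higher in Axin2+/GFP+ cells in limma, against 4.64% of all genes, and 2 lower, against 11.4%, with a median log2 change of 0.26 against 0.14 over all genes. The count of higher calls was 0 in the methods' t-test, 1 with the replicate block, with median centring, on receptor genes, with the filter on dim genes and without Axin2+/GFP+ replicate 3 or any 1 Axin2-/GFP- sample, 4 after quantile normalization and 5 after cyclic loess. That of lower calls was 1 in the methods' t-test and after quantile normalization or cyclic loess, and 2 in the other fits. Gca, grancalcin, a calcium-binding protein of neutrophils and macrophages, had log2 values of 4.05, 4.38 and 5.16 in Axin2+/GFP+ cells, against 2.57, 2.22 and 1.75 in Axin2-/GFP- cells. The sorts did not overlap, and the log2 change was 2.35 (SE 0.32, limma adjusted p = 0.00212). Calb1, calbindin, had a log2 change of 0.61 (limma adjusted p = 0.0410). This call was lost without any 1 of the 6 samples, with the replicate block and under all 4 rescalings, where the change ran from 0.29 to 0.50. Calb1 was dim, with a mean log2 value of 2.28 in Axin2+/GFP+ cells and 1.67 in Axin2-/GFP- cells. The median of the receptor genes was 1.80 and 1.46 in these sorts, and their median log2 change was 0.30.

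Calm2, which encodes calmodulin, had log2 values of 8.24, 8.12 and 8.47 in Axin2+/GFP+ cells, against 9.29, 9.27 and 9.50 in Axin2-/GFP- cells, and differed by -1.08 (SE 0.18, limma adjusted p = 0.00493). It did not pass after quantile normalization (-0.46) or cyclic loess (-0.44). Calm3, another calmodulin gene, had a log2 change of 0.43 (limma adjusted p = 0.165), and passed after quantile normalization (0.86) and cyclic loess (1.02). It was named after its values were seen. Cib1, a calcium- and integrin-binding protein, fell by 1.27 on the log2 scale (limma adjusted p = 0.00697), with values of 3.70, 3.23 and 3.94 in Axin2+/GFP+ cells and 4.99, 5.04 and 4.66 in Axin2-/GFP- cells.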
